A study of Homo sapiens with 6 samples.

Results

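The genes described here encode the proteins of the cytosolic ribosome. They were taken from the deposited gene table by symbol: names of the form RPL or RPS with a number (and an optional letter or copy mark), together with RPLP0, RPLP1, RPLP2, RPSA, RPL36AL and FAU, without pseudogenes. This gave 86 of the 26475 genes in the table. Of these, 78 are the core set, 46 of the large and 32 of the small subunit, and 8 are paralogs, near copies encoded by a separate gene. The rule does not take RACK1, whose product also belongs to the ribosome, nor the Y-linked copies of RPS4X. HepG2 is an established human line from a liver cancer. RNA-seq libraries were made from exponentially growing HepG2 cells expressing eGFP, a green fluorescent protein that serves as the control (n = 3), and from HepG2 cells expressing TAF2 (n = 3). The libraries are numbered as replicates, but the labels do not say whether they came from separate cultures, so a p-value here covers no more than the variation among 3 libraries a group, which could be technical. The sources used here do not give the promoter that drives eGFP or TAF2, nor say whether either line is a single clone.

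A ribosome is built from a small subunit, which reads the mRNA, and a large subunit, which joins amino acids and passes the new chain through an exit tunnel. Each subunit holds ribosomal RNA and many different proteins, and their production is among the largest costs of a growing cell. The mRNAs of ribosomal proteins usually begin with a C followed by a run of pyrimidines, the 5′ terminal oligopyrimidine tract, through which mTORC1 and LARP1 control their translation together. TAF2 is a subunit of TFIID, the general factor that binds core promoters at the start site of genes read by RNA polymerase II. RNA abundance, measured here, does not show translation or the number of ribosomes.

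TAF2 itself was at 35.8, 40.4 and 37.5 CPM (counts scaled to library size) in eGFP libraries and at 50.1, 48.3 and 47.4 in TAF2 libraries. The log2 fold change was thus 0.36 (SE 0.046, quasi-likelihood test in edgeR, Benjamini-Hochberg adjusted p = 1.44e-08), in the labelled direction and without overlap. Libraries held 22276308 to 28024004 counts, with overlapping depths in the 2 groups. All 7 listed HepG2 identity genes, such as ALB and AFP, were detected in every library and were called lower with TAF2, their sum being 21977 to 22217 CPM in eGFP and 16723 to 16969 CPM in TAF2 libraries. Of 8 markers of other cell types, 6 were under 1 CPM and 3 of those were at 0 in every library. Their sum, most of it CD68, was 46.2 to 50.1 CPM in eGFP and 36.7 to 38.9 CPM in TAF2 libraries, while COL1A1, the only other one tested, was at 0.670 ± 0.270 CPM in eGFP and 1.505 ± 0.191 CPM in TAF2 libraries (SD, n = 3 each) and was called higher. The part of either marker list in the results below was not tested. Bulk RNA cannot tell fewer cells of a kind from less RNA per cell.

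The ribosomal protein genes moved little and mostly upward with TAF2, while a smaller set, most of it on chromosomes 11, 4 and the short-arm end of chromosome 1, moved down. Of the 86, 83 had enough counts to test: 45 rose and 12 fell at an adjusted p under 0.05, and 26 passed in neither direction. In the whole table of 12902 tested genes, 43% were called, 20.6% higher and 22.4% lower, against 54.2% and 14.5% of the ribosomal protein genes. These are abundant genes, for which small differences are easier to call: among the 1681 genes at least as high as the lowest core gene, 39.3% were called higher and 25.8% lower. The groups did not overlap for 47 genes in the upward and 12 in the downward direction, where 24.5% and 26.1% of all tested genes did so, 50.6% in all. DESeq2 called 45 of the genes higher and 11 lower, and 14.3% and 15.2% of all genes it tested. The counts of calls rest partly on single libraries, since 37 genes were called higher without TAF2 replicate 2.

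The sizes of the changes were small. The median log2 fold change of the core genes was 0.06, against -0.0027 for all tested genes, and its standard deviation over genes was 0.108, against 0.423. Of the 78 core genes, 64 lay within 0.1 of the core median, and 0 changed by 1.3-fold or more in either direction. Among the tested paralogs, RPL22L1 alone passed that size. The spread between libraries was small as well. The median coefficient of variation of a core gene was 2.07% in eGFP and 1.21% in TAF2 libraries, and 4.44% at most.

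**Figure D1:**
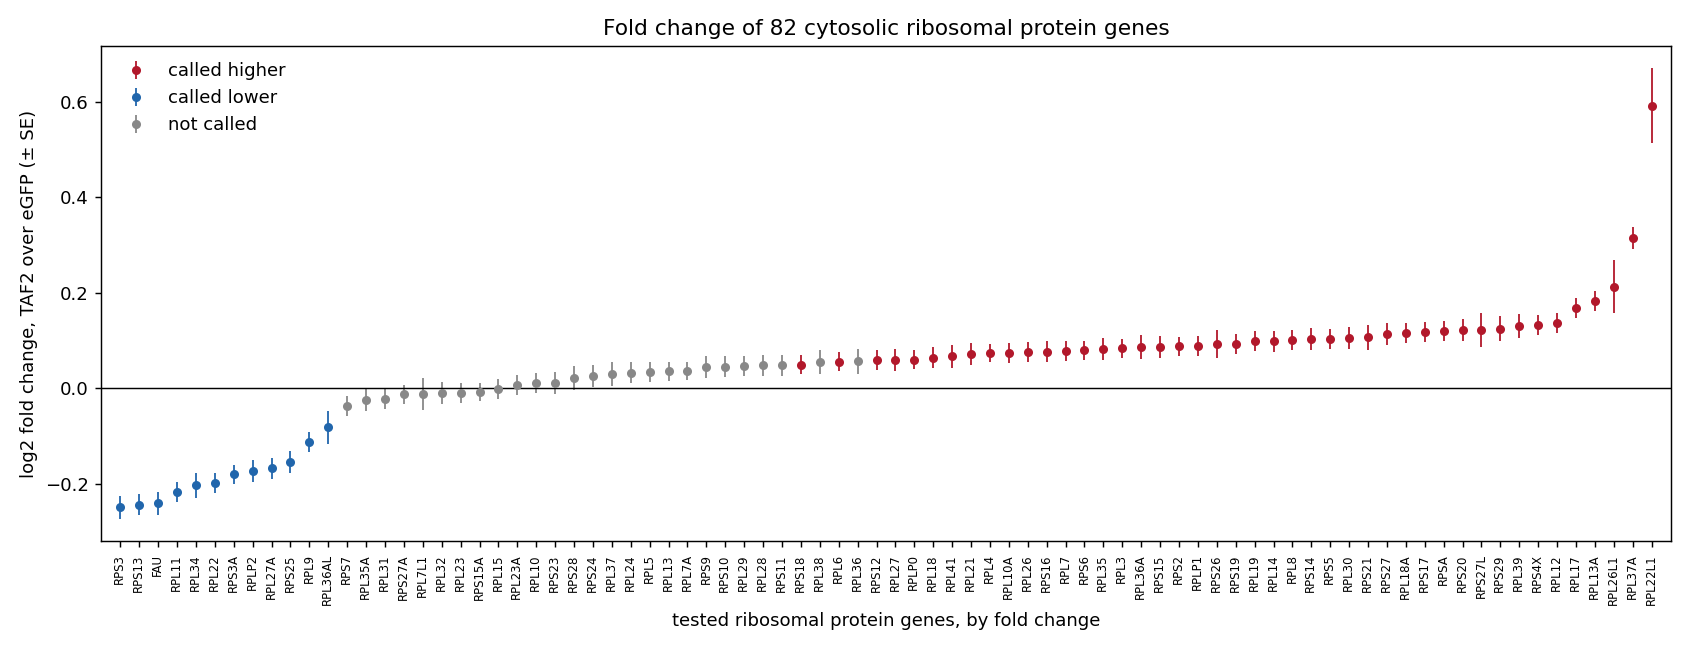
Each of 82 tested ribosomal protein genes is drawn at its log2 fold change, TAF2 over eGFP, in ranked order with its standard error (red, called higher; blue, called lower; grey, neither). Most points lie just above 0, the genes called lower form a tail down to -0.25, and RPL22L1 stands apart at 0.59.

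Both subunits had more rises than falls. Of 46 large-subunit genes 24 rose and 6 fell, with a median log2 fold change of 0.06, and of 32 small-subunit genes 18 rose and 5 fell, with a median of 0.07. All ribosomal protein genes together held 5.24%, 5.08% and 5.20% of the counts of the eGFP libraries and 5.33%, 5.37% and 5.32% of those of the TAF2 libraries, in replicate order. Every TAF2 library was above every eGFP library, but the distance from the nearest eGFP library was small. Means were 5.17% ± 0.0811 and 5.34% ± 0.0296 (SD, n = 3 each). The large-subunit genes held 3.07% ± 0.0501 and 3.19% ± 0.0179, and the small-subunit genes 2.08% ± 0.0309 and 2.12% ± 0.0119. The ratio of large-subunit to small-subunit counts was 1.476, 1.474 and 1.485 in eGFP and 1.503, 1.505 and 1.506 in TAF2 libraries. These sums over chosen genes are given without a test.

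**Figure D2:**
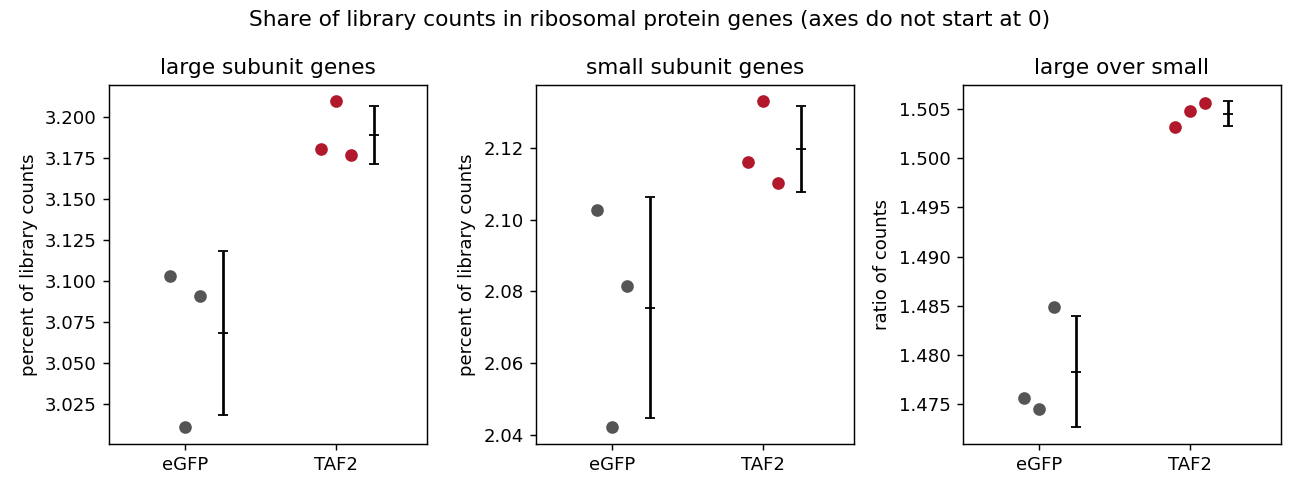
The left and middle panels plot the percent of each library's counts held by large-subunit and by small-subunit genes, and the right panel their ratio; points are libraries, bars are group means with SD, and the axes do not start at 0. The 3 TAF2 libraries lie above the 3 eGFP libraries in each panel, and eGFP replicate 2 has the lowest shares, 3.01% and 2.04%.

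The starts of the genes with the largest rises and falls are shown because TAF2 belongs to a factor that binds there and because the pyrimidine tract defines this gene family. Each sequence runs 5′ to 3′ from 60 bases before the annotated start through the first 20 transcribed bases, from the RefSeq promoter table on GRCh38.p14, and capitals mark the unbroken run of C and T at the start. The 3 genes with the largest rises come first, RPL22L1 (chr3:170870176-170870255, minus strand), RPL37A (chr2:216498784-216498863, plus strand) and RPL26L1 (chr5:172958669-172958748, plus strand), and then those with the largest falls, RPS3 (chr11:75399458-75399537, plus strand), RPS13 (chr11:17077648-17077727, minus strand) and FAU (chr11:65122115-65122194, minus strand).
RPL22L1: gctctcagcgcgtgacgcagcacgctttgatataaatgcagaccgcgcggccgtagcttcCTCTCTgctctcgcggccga
RPL37A: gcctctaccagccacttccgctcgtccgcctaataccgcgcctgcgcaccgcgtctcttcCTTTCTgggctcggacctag
RPL26L1: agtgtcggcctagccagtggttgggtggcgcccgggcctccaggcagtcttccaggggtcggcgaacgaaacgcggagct
RPS3: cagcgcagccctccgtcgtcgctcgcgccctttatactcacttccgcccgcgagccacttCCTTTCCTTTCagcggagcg
RPS13: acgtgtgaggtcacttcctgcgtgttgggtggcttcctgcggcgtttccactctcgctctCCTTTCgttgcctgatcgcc
FAU: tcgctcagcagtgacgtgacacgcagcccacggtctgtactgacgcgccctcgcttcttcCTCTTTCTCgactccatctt
The tract stands at the start of genes that rose (RPL22L1, RPL37A) and of genes that fell (RPS3, RPS13, FAU). RPL26L1, which has 2 annotated starts in the table, has none at the start shown.

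The promoter table held 69 of the 86 genes, 63 of them core. A C at the annotated start followed by at least 4 more C or T, read on the gene's strand, was found in 47 of the 63 core genes (74.6%), in 1 of 6 paralogs and in 5.14% of all 27305 genes of the table. Of the 47 core genes with such a tract 22 rose and 10 fell, with a median log2 fold change of 0.05. Of the 16 without it 11 rose and 1 fell, with a median of 0.07. Both kinds of start were thus found among rising and falling genes. The letters TATAAA, the core of a TATA box, began 40 to 20 bases before the start on the gene's strand in 2 of the 63 core genes, RPS28 and RPLP0, and in 2.92% of all genes of the table. Of the paralogs, RPL22L1 and RPL10L had them there, which is visible in the RPL22L1 sequence as printed.

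Other letters linked to ribosomal protein promoters were searched on both strands over 300 bases, 250 before to 50 after the start. CCGGAAG, a core of sites for ETS factors such as GABPA, was in 22 of the 63 core genes (34.9%), in 12.2% of all genes of the table and in 22.6% of the tested genes outside the family. Of those 22 genes 10 rose and 6 fell, with a median log2 fold change of 0.05. Of the 41 core genes without it 23 rose and 5 fell, with a median of 0.06. Among all tested genes 20.6% were called higher and 22.4% lower. AAGATGGC, a core of YY1 sites, was in 7 of 63 (11.1%), in 3.52% of all genes and in 6.66% of the tested genes outside the family. Of those 7 genes 2 rose and 2 fell, and of the 56 core genes without it 31 rose and 9 fell. Both motifs can share the letters AAG, such overlaps were counted for each, and a match is a description of the sequence only.

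RPL22L1, the paralog of the large-subunit protein RPL22, had the largest rise among tested ribosomal protein genes. It was at 10.8, 10.98 and 10.3 CPM in eGFP and at 16.9, 14.6 and 16.8 CPM in TAF2 libraries, or 1.51-fold higher (log2 fold change 0.59, SE 0.078, edgeR adjusted p = 3.36e-08). Both groups stood well apart, and TAF2 replicate 2 was the lowest of its group. RPL37A, a small zinc-binding protein of the large subunit, was at 671, 625 and 663 CPM in eGFP and at 819, 814 and 805 CPM in TAF2 libraries (log2 fold change 0.31, SE 0.023, edgeR adjusted p = 1.48e-14). It was the core gene with the largest rise, and its TAF2 libraries lay close together. RPL26L1, the paralog of RPL26, was at 24.6, 24.5 and 27.6 CPM in eGFP and at 30.3, 29.7 and 28.9 CPM in TAF2 libraries (0.21, SE 0.055, edgeR adjusted p = 0.00147). Its groups came within a short distance of each other at eGFP replicate 3.

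RPL13A, a large-subunit protein also known for silencing inflammatory mRNAs when released from the ribosome, was at 1611, 1513 and 1561 CPM in eGFP and at 1743, 1790.3 and 1784 CPM in TAF2 libraries (0.18, SE 0.021, edgeR adjusted p = 1.52e-09). RPL17, which lies at the exit tunnel, was at 605, 589 and 604 CPM in eGFP and at 676, 667 and 677 CPM in TAF2 libraries (0.17, SE 0.021, edgeR adjusted p = 8.30e-09). Both rose without overlap between groups. The other genes that rose did so by less, and the median size of a called log2 fold change, in either direction, was 0.11.

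The genes with the largest falls were of both subunits. RPS3, which helps form the mRNA entry channel and also acts in DNA repair, was at 1378, 1295 and 1292 CPM in eGFP and at 1081, 1139 and 1115 CPM in TAF2 libraries (log2 fold change -0.25, SE 0.024, edgeR adjusted p = 3.72e-09). RPS13, a small-subunit protein near the bridge to the large subunit, was at 446, 435 and 444 CPM in eGFP and at 368, 378 and 372 CPM in TAF2 libraries (-0.24, SE 0.022, edgeR adjusted p = 2.31e-12). FAU, whose product is a ubiquitin-like protein fused to the small-subunit protein RPS30, was at 251, 244 and 244 CPM in eGFP and at 206, 209 and 209 CPM in TAF2 libraries (-0.24, SE 0.024, edgeR adjusted p = 3.57e-11). For these 3 genes every TAF2 library was well under every eGFP library.

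RPL11, which with RPL5 binds and inhibits MDM2 when ribosome assembly fails, was at 701, 678 and 691 CPM in eGFP and at 589, 596 and 594 CPM in TAF2 libraries (-0.22, SE 0.021, edgeR adjusted p = 1.13e-11). RPL34, a large-subunit protein, was at 239, 241 and 246 CPM in eGFP and at 203, 211 and 216 CPM in TAF2 libraries (-0.20, SE 0.025, edgeR adjusted p = 8.42e-09). RPL22 was at 473, 465 and 468 CPM in eGFP and at 407, 410.4 and 409 CPM in TAF2 libraries (-0.20, SE 0.021, edgeR adjusted p = 2.52e-10). The groups lay apart for all 3 genes. Smaller falls were measured for RPS3A (-0.18), the stalk protein RPLP2 (-0.17), RPL27A (-0.17), RPS25 (-0.15), which many viral internal ribosome entry sites need, and RPL9 (-0.11). These 11 genes kept their call under every other setting that tested them, 15 for RPL11 and RPL22 and 14 for the others, which the setting without chromosomes 4 and 11 leaves out. RPL36AL (-0.08, edgeR adjusted p = 0.0471) completes the 12, and its call ended under 11 of 15 settings, among them leaving out eGFP replicate 1 or 2 or TAF2 replicate 2 or 3 (adjusted p from 0.0583 to 0.27 where lost).

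**Figure D3:**
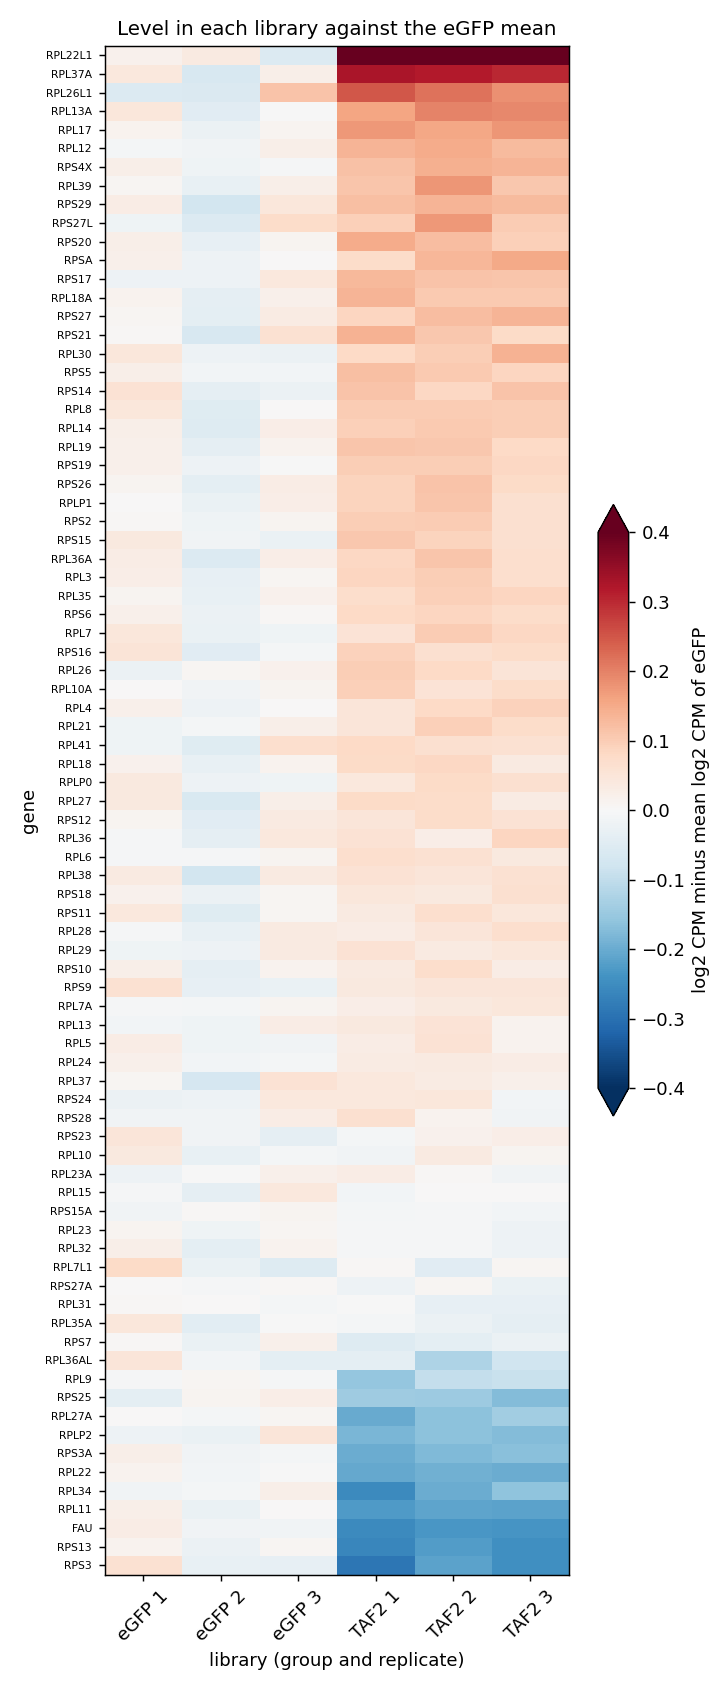
Each row is 1 of 82 tested ribosomal protein genes and each column a library, coloured by the log2 difference from the gene's mean in eGFP libraries, with colours ending at 0.4 in either direction (RPL22L1 lies beyond). Genes that fell form a block that is low in all 3 TAF2 libraries, and most other rows are slightly high there.

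Where a gene lies in the genome went together with its direction. All 6 ribosomal protein genes of chromosome 11 (RPS3, RPS13, FAU, RPLP2, RPL27A and RPS25) fell, with a median log2 fold change of -0.21, as did all 3 of chromosome 4 (RPL34, RPS3A and RPL9, median -0.18) and both within the first 30 Mb of chromosome 1 (RPL11 and RPL22, median -0.21). Other genes of these chromosomes were often lower too: of 721 tested genes on chromosome 11, 74.2% were called lower and 2.91% higher, and of 414 on chromosome 4, 58% were called lower and 6.28% higher. Of the 72 tested ribosomal protein genes elsewhere 45 rose and 1, RPL36AL, fell, with a median of 0.07. Among all tested genes outside the same regions, 22.7% were called higher and 17.0% lower, with a median of 0.02. All 4 genes on each of chromosomes 8, 12 and 15 rose, and on chromosome 19, which holds 12 of these genes, 7 rose and 0 fell. Other tested genes of at least 5 CPM had medians of 0.03 on chromosomes 8, 12 and 15 and of 0.04 on chromosome 19. Of the 4 on chromosome 12, 3 lost their call without single libraries: RPLP0 (0.06, edgeR adjusted p = 0.0125) without eGFP replicate 3 or TAF2 replicate 2, RPL6 without TAF2 replicate 1 or 2, and RPL41 without eGFP replicate 1 or 2 or TAF2 replicate 3. RPS27L on chromosome 15 and RPL18 on chromosome 19 lost their calls without TAF2 replicate 2.

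Each core gene was set beside its surroundings, taken as the median log2 fold change of tested genes of at least 5 CPM within 5 Mb that are not ribosomal protein genes. Over the 78 core genes the log2 fold changes of the gene and of its surroundings had a Pearson correlation of 0.885, a description across genes measured in the same libraries. With tested paralogs included, the 12 genes in regions at or under -0.15 had a median of -0.19. For regions from -0.15 to -0.05 the median was 0.03 over 5 genes. It was 0.07 over 51 genes from -0.05 to 0.05, and 0.08 over 14 genes from 0.05 to 0.15. Above the lowest regions the medians thus changed little, RPL37A apart. The standard deviation of the core genes about their surroundings was 0.0504, against 0.108 before that subtraction. RPS3 (-0.25) had surroundings at -0.28 over 55 genes, RPS13 (-0.24) at -0.28 over 26 genes and FAU (-0.24) at -0.27 over 173 genes. RPL11 (-0.22) lay among 109 genes with a median of -0.16, RPL34 (-0.20) among 23 genes at -0.16 and RPL22 (-0.20) among 86 genes at -0.17. These falls were thus close to those of the genes around them. Next to FAU, MRPL49, which encodes a mitochondrial ribosomal protein and lies 0.049 kb away, was lower by more (-0.42).

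Rises were set beside position in the same way. RPL37A (0.31) lay among 41 genes with a median of 0.21, and RPL17 (0.17) among 24 genes with a median of 0.13. Neighbours were taken evenly from both sides among tested genes of at least 5 CPM outside the family, so genes under that level were passed over. None of the 4 nearest such genes of RPL17 was called higher. DYM was at 0.03 and C18orf32 at -0.02, neither called. ACAA2 (-0.14, 290 kb away) and MYO5B (-0.18, 330 kb away) were called lower. Relative to their surroundings, 62 of the 78 core genes were higher. Over all 78 the median offset from the surroundings was 0.05 on the log2 scale. That offset is of the same size as the rise of the core genes as a whole. RPS7, at the start of chromosome 2, lay among 10 genes with a median of -0.23 and was itself at -0.04 (edgeR adjusted p = 0.14), 0.19 above them. It was the 1 gene of 12 in regions at or under -0.15 that was not called lower. In the fit without the genes of chromosomes 4 and 11, however, RPS7 was called lower. RPL22L1 (0.59) lay among 16 genes with a median of -0.09, a distance of 0.69. Its 4 neighbours taken in the same way differed in direction, and SKIL and CLDN11 lie 468 and 430 kb away. EIF5A2, 18.2 kb away, was called higher (0.40), SKIL (-0.33) and SLC2A2 (-0.93) were called lower, and CLDN11 (-0.18) was not called. The part of position in these changes was not tested.

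**Figure D4:**
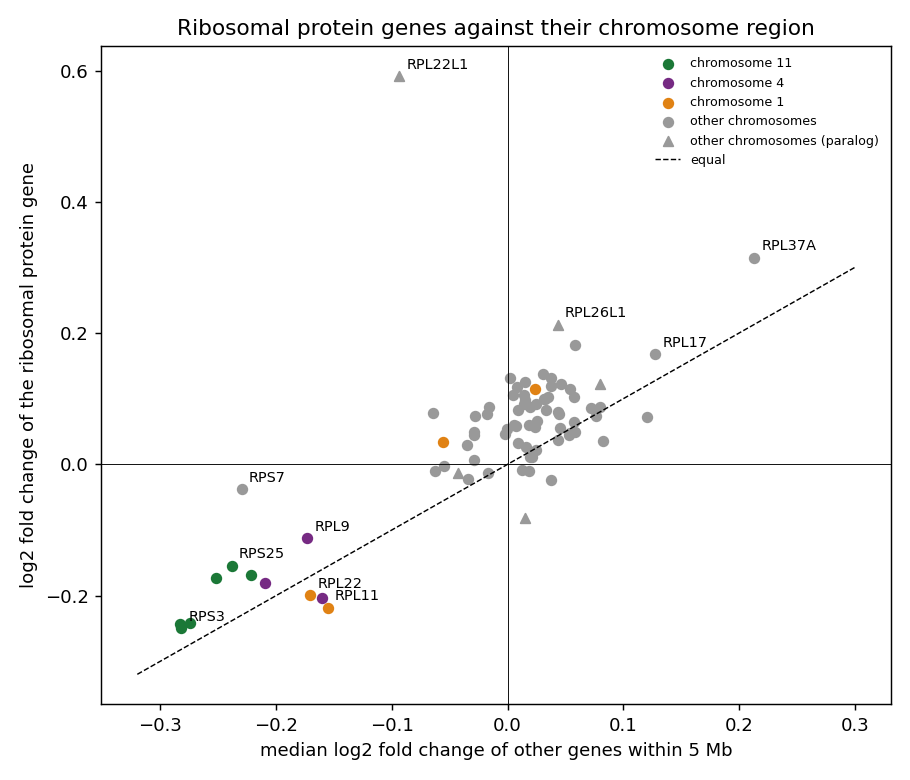
The log2 fold change of 82 tested ribosomal protein genes is plotted against the median of the other genes within 5 Mb, with a dashed line of equality, triangles for paralogs and colours for chromosomes 11, 4 and 1. The falling group on chromosomes 11, 4 and 1 lies near the line at the lower left, and RPL37A lies at the upper right. Most other genes lie in a cluster between them, mostly a little above the line, and RPL22L1 lies far above.

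Paralogs are used in place of, or beside, their parent protein in some tissues and tumours. Of the 8, RPL10L and RPL39L had 0 counts in every library and RPL3L at most 3, so they were not tested. Of the 5 tested, RPL22L1, RPL26L1 and RPS27L rose, RPL36AL fell and RPL7L1 passed in neither direction. RPL22L1 and its parent RPL22 moved in opposite directions. The log2 ratio of RPL22L1 to RPL22 counts was higher by 0.79 in TAF2 than in eGFP libraries, with an SD over libraries of 0.050 in eGFP and 0.13 in TAF2. RPL22 protein is known to repress RPL22L1, as background from other systems.

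The remaining paralogs stayed nearer to their parents. RPL26 was at 478, 489 and 492 CPM in eGFP and at 520.2, 514 and 505 CPM in TAF2 libraries (0.08), and the log2 ratio of RPL26L1 to it was higher by 0.14 (SD 0.085 and 0.010). RPS27L, a p53 target, was at 76.5, 74.5 and 81.5 CPM in eGFP and at 82.8, 87.4 and 83.1 CPM in TAF2 libraries (0.12, edgeR adjusted p = 0.00485, and 0.0502 without TAF2 replicate 2). Its parent RPS27 was at 326, 316 and 332 CPM against 345, 353 and 357 CPM (0.11), and their log2 ratio differed by 0.01. RPL36AL and RPL36A differed in direction. RPL36AL was at 90.4, 86.9 and 85.2 CPM in eGFP and at 85.1, 80.3 and 82.7 CPM in TAF2 libraries, while RPL36A rose from 217, 204 and 216 CPM to 225, 229 and 222 CPM (0.09), so that the log2 ratio was lower in TAF2 libraries (-0.17, SD 0.058 in both groups). RPL7L1 was at 98.5, 91.9 and 90.3 CPM against 93.8, 90.7 and 94.1 CPM (-0.01), and its parent RPL7 rose from 868, 825 and 831 CPM to 873, 902 and 890.3 CPM (0.08). RSEM divides reads that fit several genes, which can leave counts that are not whole. RPL36A had such counts in 4 libraries and RPL36AL in 2, so some of their reads could be shared. RPL22, RPL26, RPL7, RPS27 and their paralogs had whole counts in every library.

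**Figure D5:**
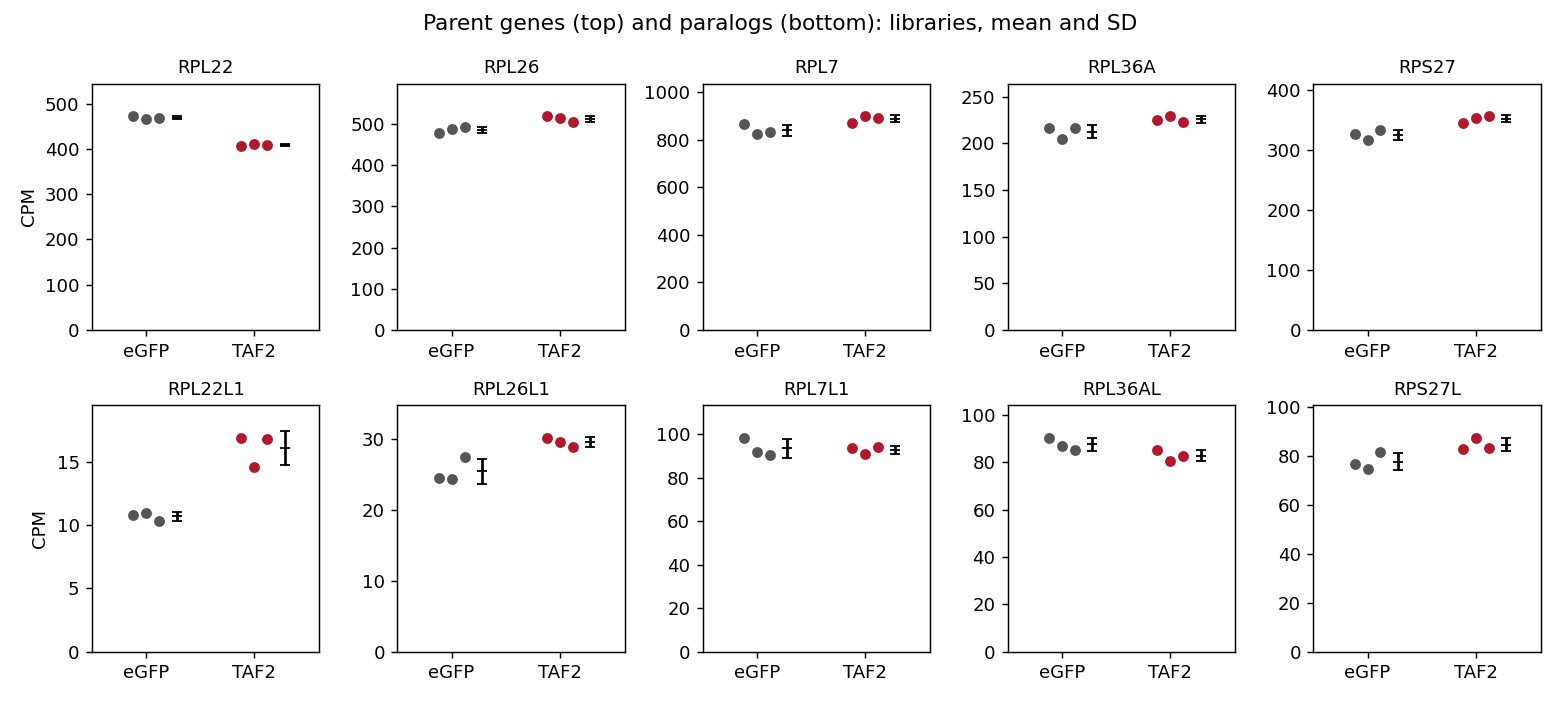
CPM of each parent gene (top row) and tested paralog (bottom row) are plotted by library, with group means and SD; each axis starts at 0. RPL22L1 is higher in TAF2 libraries (mean 16.1 against 10.7 CPM) and RPL22 is lower (409 against 469 CPM), and the other pairs show smaller changes.

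The stalk of the large subunit, which recruits elongation factors, is made of RPLP0, RPLP1 and RPLP2. RPLP0, its anchor, was at 1628, 1562 and 1566 CPM in eGFP and at 1632, 1671 and 1655 CPM in TAF2 libraries (0.06). RPLP1 was at 749, 734 and 761 CPM in eGFP and at 795, 808 and 781 CPM in TAF2 libraries (0.09, edgeR adjusted p = 6.47e-04). RPLP2, on chromosome 11, was at 528, 527 and 554 CPM in eGFP and at 473, 479 and 475 CPM in TAF2 libraries (-0.17). RPLP1 and RPLP2 proteins work as pairs, and their mRNAs moved in opposite directions. So did their surroundings, at 0.08 over 47 genes for RPLP1 and at -0.25 over 51 genes for RPLP2. RPL5 and RPL11, which travel together with an RNA of the large subunit, came next. RPL11 fell, as given above, and RPL5 was at 827, 801 and 803 CPM in eGFP and at 827, 844 and 819 CPM in TAF2 libraries (0.03, edgeR adjusted p = 0.181), with overlapping groups.

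The counts in these groups stand beside 54.2% of all tested ribosomal protein genes called higher and 14.5% called lower. Among all tested genes the shares were 20.6% and 22.4%. Of 8 proteins lining the exit tunnel, RPL17 among them, 6 rose (75%) and 0 fell, with a median of 0.08. None of their genes is on chromosome 11 or 4. Of 8 at the mRNA channel and decoding site 4 rose (50%) and 2 fell (25%), RPS3 and FAU, both on chromosome 11. RPS6, the substrate of S6 kinase whose phosphorylation is the usual readout of mTORC1, was at 1044, 1014 and 1033 CPM in eGFP and at 1089, 1094 and 1085 CPM in TAF2 libraries (0.08, edgeR adjusted p = 9.44e-04). Of the 20 genes linked to Diamond-Blackfan anaemia, an inherited failure of red cell production, 10 rose (50%) and 1, RPL11, fell (5%). The share that rose was close to that of all tested ribosomal protein genes.

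Genes that make a ribosomal protein fused to ubiquitin or a ubiquitin-like protein formed another list, and calls differed within it. FAU fell, as given above. RPS27A, one of the cell's ubiquitin sources, was at 723, 720.3 and 725 CPM in eGFP and at 713, 727 and 709.7 CPM in TAF2 libraries (-0.01, edgeR adjusted p = 0.658), with overlapping groups. RACK1, a scaffold protein on the small subunit, was at 0.04 (edgeR adjusted p = 0.0702), and 5 other settings called it higher.

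Other features of the genes were set beside the calls. Introns of 28 core genes hold 60 annotated small nucleolar RNA genes, which guide modification of ribosomal RNA. Of these host genes 14 rose and 5 fell (median 0.05), and of the 50 without such RNAs 28 rose and 6 fell (median 0.06). Ribosomal protein genes have many processed pseudogenes, and reads can be divided between them. The table holds 34 rows of pseudogenes or readthrough transcripts named for these genes. The related rows of a gene, summed, held at most 20.7% as many counts as that gene in any library, for the 3 rows of RPSA, of which RPSAP58 holds most. The 6 rows of RPL23A held up to 3.98% and the readthrough row of RPL36A up to 3.42%. Counts that are not whole, which RSEM gives where it divides reads, were found for 9 of the 86 genes. RPL13A and RPL17 had them in 6 libraries, and RPL21, RPS10 and RPSA in 5. RPL36A had them in 4 libraries and RPL23A in 0. RPSA rose by 0.12 and RPSAP58 by 0.08.

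Other listed genes share the pyrimidine tract or act on ribosomal proteins, and their counts stand beside the 20.6% of all tested genes called higher and 22.4% called lower. Of 17 other mRNAs known to carry the tract 8 rose (47.1%) and 2 fell (11.8%), with a median of 0.05. NAP1L1, a histone chaperone (0.20), and GAS5, a noncoding host of small nucleolar RNAs (0.21), rose, and EEF1G, an elongation factor subunit (-0.25), and EIF3F, an initiation factor subunit (-0.20), fell. Both falls are of genes on chromosome 11, where 74.2% of tested genes were called lower. The setting without chromosomes 4 and 11 leaves both genes out, so its 8 rises and 0 falls among 15 genes do not bear on them. Of 16 chaperones and import factors of ribosomal proteins 5 rose (31.2%) and 1 fell (6.25%): AAMP (0.24), NAP1L1, BTF3 (0.14), IPO5 (0.12) and LTV1 (0.13) rose, and the import receptor IPO7, also on chromosome 11, fell (-0.20). Without chromosomes 4 and 11, a setting that leaves IPO7 out, this list had 5 rises and 0 falls among 15 genes.

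Of 17 genes of mTORC1 and of control through the tract 4 rose and 4 fell (23.5% each), with a median of -0.03, shares close to those of all tested genes. EIF4EBP2, a repressor of cap-dependent translation (-0.24), MLST8, an mTORC1 subunit (-0.24), and the kinase RPS6KB2 (-0.19), the last of them on chromosome 11, fell, and AKT1S1, an inhibitor within mTORC1, rose (0.16). Of 10 transcription factors linked to ribosomal protein genes 3 rose (30%), MYC (0.18, edgeR adjusted p = 4.59e-08), MAX (0.18) and E2F1 (0.14), and 0 fell. TBP, the TATA-binding subunit of TFIID, was at 0.05 (edgeR adjusted p = 0.521). Of 4 genes of the p53 response to failed ribosome assembly, CDKN1A (0.17) and MDM2 (0.13) rose and 0 fell, in a list too short to set against the 20.6% of all genes.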

How the data were processed

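Total RNA of 6 HepG2 samples was made into Illumina TruSeq libraries and sequenced on a HiSeq platform, per the labels' protocols. The authors deposited expected counts per gene, without normalization; the submitters' processing notes name RSEM and hg38. The sources used here give neither aligner, annotation release nor strand use, so overlapping antisense genes cannot be told apart. Of the deposited values, 4.18% to 4.45% per library were not whole. They were rounded, and 0 columns were unused.

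All genes were fitted together in edgeR 4.0.16 (R 4.3.3): filterByExpr (12902 genes), TMM (factors 0.9976 to 1.003), a robust quasi-likelihood test with group alone, and Benjamini-Hochberg adjustment over all tested genes at 0.05. The biological coefficient of variation was 2.75%. CPM use TMM-scaled library sizes. SE is the absolute log2 fold change divided by the square root of F. The script was tested on simulated data. Genes were placed on GRCh38.p14 through RefSeq accessions, and 164 of 164 list genes were found. Within a group, counts differed by 1.98 to 5.91 chi-square per degree of freedom, and none was treated as a repeat of another.

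Ribosomal protein genes and lists were chosen with earlier results of these data known. Values per library are given for the 6 called genes with the largest rise and the 6 with the largest fall (mean of at least 5 CPM, no overlap), for paralogs and parents, the stalk, RPL5, RPL11, RPS6, RPS27A and FAU; in other lists, for up to 4 called genes with the smallest p, and further listed genes named were chosen after their values were seen. Some genes within these rules are not reported here. Alternatives covered scaling, filters, DESeq2 1.42.0, the replicate block, chromosomes 4 and 11, and each library left out.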

Additional observations from a re-analysis of the deposited data

How the results depend on the processing

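The 45 rises and 12 falls came to 45 and 11 with DESeq2 size factors in edgeR, 53 and 11 with upper-quartile scaling, 46 and 11 with library size only, 52 and 11 without a filter on low counts and 45 and 11 in DESeq2 itself. No called gene turned direction under any of the 15 settings. Leaving out 1 library in turn gave 37 to 48 rises and 11 to 12 falls. Of the 45 rises 36 were called under every setting that tested them, and RPL6, RPL18, RPL21, RPL27, RPL41, RPLP0, RPS12, RPS18 and RPS27L were not. Without the genes of chromosomes 4 and 11, 38 rises and 4 falls were called among the 74 tested. Of these falls 3 were among the 12, and the other was RPS7. In the stalk list 1 gene was called, and 1 in the ubiquitin fusion list. RPLP2 and FAU were removed from these lists there, and RPLP0 was tested and lost its call (adjusted p = 0.0735). With 1 library left out, paralogs had 2 to 4 calls, the lowest without TAF2 replicate 2, and ubiquitin fusions 1 to 2, the lowest without TAF2 replicate 3.

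Replicate numbers did not pair the libraries: deviations of same-numbered libraries correlated at -0.0446, -0.0905 and -0.1032. A fit with the replicate block called 41 rises and 11 falls. Changes of a few percent rest on 3 libraries a group and on their small spread. Depth limits RPL3L, RPL10L and RPL39L, which could not be tested.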

Other observations

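RPS4Y1, the Y-linked copy of the small-subunit gene RPS4X, lies outside the rule for the genes above and was chosen after its values were seen. It was at 99.0, 91.8 and 97.9 CPM in eGFP and at 188, 187 and 192 CPM in TAF2 libraries, or 1.96-fold higher (log2 fold change 0.97, SE 0.029, edgeR adjusted p = 2.41e-28). This exceeds the change of each of the 83 tested ribosomal protein genes.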
